A study of Mus musculus with 16 samples.

Results

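The 42 genes described here lie in the triplicated segment of Dp16 mice and serve general functions of the cell, such as protein folding, ubiquitin tagging, mitochondrial energy supply, translation, metabolism and RNA handling. They were taken by symbol from the 384 genes that the count table holds between Lipi and Zbtb21 on mouse chromosome 16 (147 of them protein-coding), and from 55385 genes in all. Each symbol was found. Atp5o had a second entry, a read-through transcript with 3 reads in 1 library, which was set aside. The question was how the RNA of each gene compared with the 1.5-fold level that 3 copies in place of 2 would give if RNA followed copy number.

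The assay was RNA sequencing of polyadenylated transcripts in the cerebral cortex of 16 mice, each 5 months old, with 1 library per animal and 4 animals per genotype. The 5xFAD-Dp16 mice carried both modifications below and were all 4 male. The 5xFAD mice carried human amyloid precursor protein and presenilin transgenes with familial Alzheimer mutations, which the Thy1 promoter drives mainly in neurons, with the normal 2 copies of the segment. The Dp16 mice carried 3 copies of the segment and no transgene. The wild-type mice were C57BL/6J; these last 3 groups had 2 males and 2 females each. The segment spans 22.4 Mb.

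Counted reads per library ran from 12483286 to 20385010. The sex-linked genes fitted the sex given in the labels in 16 of 16 libraries, and Thy1, whose promoter drives the transgenes, averaged 1647 ± 137.5 CPM (read counts scaled to library size) in 5xFAD-Dp16 and 1640 ± 200.2 in 5xFAD cortex, against 863 ± 48.5 in Dp16 and 886 ± 41.5 in wild-type cortex (SD, n = 4 each). Libraries differed in how gene levels depended on gene length, with rank correlations between length and deviation from the mean of 0.45 (5xFAD-Dp16 animal 1) to -0.461 (5xFAD animal 3). 5xFAD animal 3 and wild-type animal 2 had the lowest correlations with the other libraries. Some counts of calls and the members' median folds are also given without both, while values of single genes mostly are not. In whole cortex, fewer cells of a type and less RNA per cell cannot be told apart.

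As background, an extra copy of a chromosome segment adds template for every gene on it, and the RNA of such genes is commonly found near the copy ratio, although feedback and promoter strength can move single genes. Many of these genes encode single subunits of machines whose other subunits lie mostly outside the segment. Among these machines are the CCT chaperonin, which folds actin and tubulin, the mitochondrial ATP synthase and the mitochondrial ribosome.

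Promoters of 36 of the 42 genes were found in the RefSeq table of mouse promoters (assembly GRCm38.p6, 250 bases before to 50 bases after each start, 300 bases in all), which gave 45 promoters. Most were rich in CpG, with a median of 28 CpG dinucleotides against 7 over all 32851 promoters. The letters GCATGCGC, part of the site that nuclear respiratory factor 1 (NRF1) binds, stood on either strand in 9 of the 45 promoters (20%) and in 2.712% of all promoters. The letters CCGGAAG, which factors of the ETS family bind, stood in 24.444% against 8.858%, CCAAT in 26.667% against 37.408%, AAGATGGC (YY1) in 2.222% against 2.749%, and TATAAA in 2.222% against 13.616%. No motif in this set contains another, both strands were searched, and a match describes the window only. Some of the 45 windows overlap, so they are not independent. The NRF1 letters in the Ttc3 window and in the Pigp windows that hold them are the same place, counted once per window. The comparison with all promoters was not matched for CpG content, and the NRF1 and ETS letters each hold a CpG. The 4 promoters below are shown because they belong to the genes the results turn on. Tmem50b and Ttc3 had among the lowest adjusted p-values, Slc5a3 shares its start region with Mrps6 and Ttc3 shares its with Pigp, and Samsn1 was the member with a fold below 1. All are written 5′ to 3′ on the strand of the gene, with NRF1 and CCAAT letters (on either strand) in capitals.
Tmem50b, chr16:91597631-91597930, minus strand: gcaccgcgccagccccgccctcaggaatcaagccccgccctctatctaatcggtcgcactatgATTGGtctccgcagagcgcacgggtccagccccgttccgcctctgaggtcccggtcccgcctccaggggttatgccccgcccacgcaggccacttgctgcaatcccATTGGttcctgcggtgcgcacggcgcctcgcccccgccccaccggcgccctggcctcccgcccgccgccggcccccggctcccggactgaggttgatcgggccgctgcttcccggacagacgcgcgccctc
Ttc3, chr16:94370489-94370788, plus strand: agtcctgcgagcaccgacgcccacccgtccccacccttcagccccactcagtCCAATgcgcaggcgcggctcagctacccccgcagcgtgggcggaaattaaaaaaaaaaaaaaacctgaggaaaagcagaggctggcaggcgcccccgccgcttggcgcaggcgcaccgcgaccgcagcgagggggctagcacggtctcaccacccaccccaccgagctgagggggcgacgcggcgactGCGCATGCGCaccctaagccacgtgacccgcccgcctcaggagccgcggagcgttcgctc
Slc5a3, chr16:92058072-92058371, plus strand: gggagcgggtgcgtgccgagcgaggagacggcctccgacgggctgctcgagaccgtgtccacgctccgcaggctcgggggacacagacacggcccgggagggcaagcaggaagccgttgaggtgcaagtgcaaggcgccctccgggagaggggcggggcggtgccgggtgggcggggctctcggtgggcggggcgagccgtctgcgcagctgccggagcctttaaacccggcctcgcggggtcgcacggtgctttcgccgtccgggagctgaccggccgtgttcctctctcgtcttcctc
Samsn1, chr16:75909217-75909516, minus strand: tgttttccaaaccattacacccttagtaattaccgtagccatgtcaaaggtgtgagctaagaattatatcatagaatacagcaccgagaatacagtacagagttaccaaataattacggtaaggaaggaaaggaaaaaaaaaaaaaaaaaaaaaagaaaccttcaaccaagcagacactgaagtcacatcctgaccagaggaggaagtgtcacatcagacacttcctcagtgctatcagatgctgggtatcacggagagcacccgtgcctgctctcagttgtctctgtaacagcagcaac
The Ttc3 window holds NRF1 letters on both strands at 1 place and CCAAT at another, the Tmem50b window holds CCAAT letters on the opposite strand, and neither motif was found in the Slc5a3 and Samsn1 windows. The Slc5a3 window overlaps the Mrps6 window by 286 bases on the same strand, and the Ttc3 window overlaps a Pigp window on the other strand by 288 bases. The Samsn1 window has 5 CpG dinucleotides, against 38 in the Slc5a3 window.

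Of the 42 genes, 41 passed the filter on low counts and entered the model. Averaged over both duplication comparisons (5xFAD-Dp16 against 5xFAD, and Dp16 against wild-type), 40 of the 41 had a positive log2 fold and the median was 0.41, or 1.326-fold. The 64 other tested genes of the segment had a median of 0.60, or 1.517-fold, with 61 positive. Their median was 1.569-fold in 5xFAD-Dp16 against 5xFAD, where the members had 1.265-fold. In Dp16 against wild-type it was 1.472-fold, where the members had 1.459-fold. The 16914 genes outside the segment had an averaged median of 0.01, with 51.83% positive. At an adjusted p under 0.05, 6 members rose (Tmem50b, B3galt5, Ttc3, Ltn1, C2cd2 and Ripk4), none fell, and 0.094% of all tested genes were called higher. Those 6 are 14.6% of the 41, and 9 of the 64 other segment genes were called (14.1%). The count of 6 was 3 without wild-type animal 1 or 3, Dp16 animal 1 or 2, or 5xFAD-Dp16 animal 1, 2 or 3, and 10 without wild-type animal 2. It was 14 by DESeq2, where 0.77% of all genes were called in either direction, 16 with no filter on low counts (3.76% of all genes), 15 in males only (14.2% of all genes) and 8 without both libraries of lowest correlation (0.11% of all genes). Ripk4 and Chaf1b passed the filter only through the libraries with the duplication, so a higher level there was a condition of their being tested. Among the 39 that also passed on the 8 libraries with 2 copies, the median was 1.323-fold, 38 were positive and 5 were called.

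Neither single comparison reached the threshold for any member. In 5xFAD-Dp16 against 5xFAD cortex the members' median was 1.265-fold with 33 of 41 positive, no gene of the table was called (0%), and 13 members were higher at an unadjusted p under 0.05, where 11.8% of all genes were. In Dp16 against wild-type cortex the median was 1.459-fold with 37 of 41 positive, 0 members were called where 0.0176% of all genes were, and 24 members were higher at an unadjusted p under 0.05, where 2.48% of all genes were. DESeq2 called 7 members in the first of these comparisons, where it called 4.59% of all genes, and 9 in the second, where it called 0.206%. All 4 values with the duplication lay above all 4 without it for 14 members in 5xFAD-Dp16 against 5xFAD (5.59% of all genes) and for 17 in Dp16 against wild-type (1.44%). Both held for 9 members, namely Ripk4, Gart, Tmem50b, Cct8, Ttc3, Rwdd2b, C2cd2, Ltn1 and B3galt5, and for 0.165% of all genes. Ripk4, which is also among the 14 and the 17, was tested only because of its level with the duplication. Its separation is therefore no support. Here and below, the separation of groups was read from CPM without a sex term. In 5xFAD-Dp16 against 5xFAD it sets 4 males against 2 males and 2 females.

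**Figure D1:**
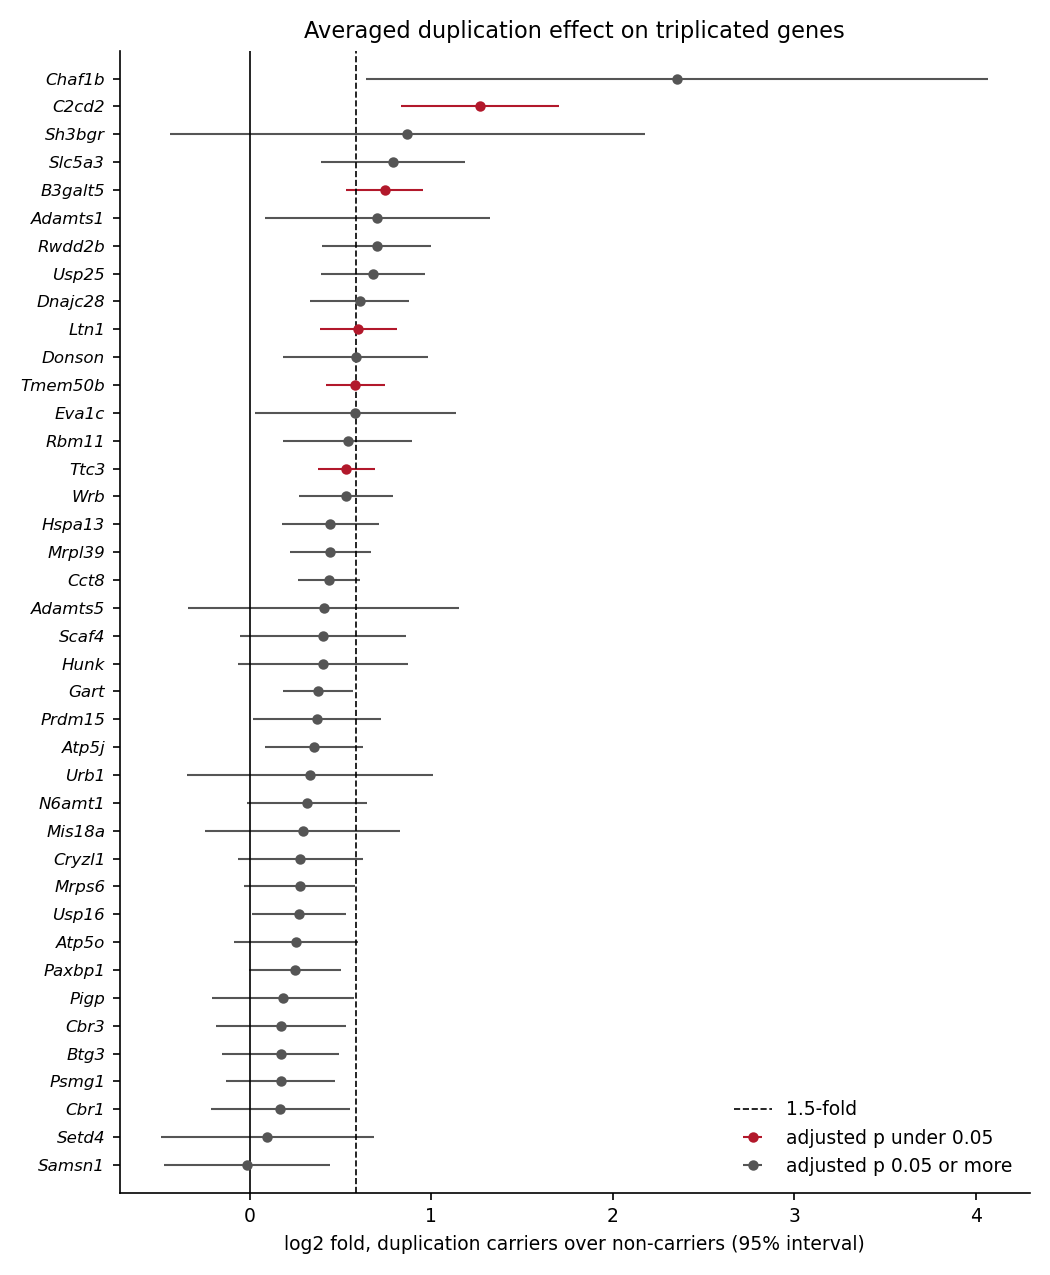
Averaged log2 fold of 40 members (8 libraries with the duplication over 8 without) on the horizontal axis, with 95% intervals, ordered by fold; red marks an adjusted p under 0.05, the solid line no difference and the dashed line 1.5-fold. Ripk4 is not drawn, since wild-type libraries held 0 reads of it. Of these intervals 28 include 1.5-fold, 10 lie below it and 2 above it.

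Genes of protein folding, ubiquitin tagging and protein targeting had a median of 1.444-fold, with 10 of 10 positive and 3 called. Tmem50b, 1 of these 3, encodes a small membrane protein of the endoplasmic reticulum and Golgi, and was placed in this class without a sure role in its processes. It measured 135, 139, 135 and 167 CPM in 5xFAD-Dp16 libraries, against 98, 108, 102 and 94.9 CPM in 5xFAD libraries. It measured 149, 156, 132 and 160.3 CPM in Dp16 libraries, against 98.7, 103, 94 and 92.8 CPM in wild-type libraries. Every library with the duplication lay above every library without it. The averaged log2 fold was 0.58 (SE 0.078, adjusted p = 0.00321), which is 1.497-fold.

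Ttc3 encodes a large ubiquitin ligase with tetratricopeptide repeats that is known to act on the kinase Akt. It measured 1449.9, 1378, 1425 and 1461 CPM in 5xFAD-Dp16 libraries, against 971, 907, 923 and 1026 CPM in 5xFAD libraries. In Dp16 libraries it measured 1183, 1353, 1199.9 and 1341 CPM, against 891, 826, 895 and 999 CPM in wild-type libraries. Again no library without the duplication reached one with it, and the averaged log2 fold was 0.53 (SE 0.075, adjusted p = 0.00361). Ttc3 has the longest gene model of the members, at 12116 bases. With the length trend of each library removed its log2 fold was 0.32 (adjusted p = 0.271), while that of Tmem50b was 0.62 (adjusted p = 0.000107).

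Ltn1 encodes Listerin, the ligase that tags unfinished proteins on stalled ribosomes. It measured 46.5, 49.2, 41.9 and 38.5 CPM in 5xFAD-Dp16 libraries, against 27.2, 28.7, 24.3 and 36 CPM in 5xFAD libraries. It measured 40.7, 44.6, 44.2 and 37.4 CPM in Dp16 libraries, against 28.9, 21.1, 27.1 and 26.6 CPM in wild-type libraries. The groups did not overlap in either comparison, although 5xFAD animal 4 lay close to the lowest 5xFAD-Dp16 animal. The averaged log2 fold was 0.60 (SE 0.099, adjusted p = 0.0213). The call held in 9 of the 16 models that leave out 1 library and was lost without any of the 7 animals named above whose removal left 3 calls. With the length trend removed the log2 fold was 0.42 (adjusted p = 0.137).

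Cct8, the theta subunit of the CCT chaperonin, stood just outside the threshold with a log2 fold of 0.44 (SE 0.082, adjusted p = 0.0532). It measured 311, 339, 323 and 350.3 CPM in 5xFAD-Dp16 libraries, against 210.5, 229, 288 and 267 CPM in 5xFAD libraries. Dp16 libraries gave 294, 333, 284 and 342 CPM, against 247, 205, 217 and 198 CPM in wild-type libraries. Both pairs of groups were apart. The remaining members of this class did not pass the test either. They were the deubiquitinases Usp25 (1.601-fold, adjusted p = 0.0982) and Usp16 (1.207-fold), the Hsp70 relative Hspa13 (1.361-fold), the DnaJ-domain gene Dnajc28 (1.522-fold), the tail-anchored protein receptor gene Wrb (1.443-fold) and the proteasome assembly chaperone Psmg1 (1.126-fold). Usp16 and Cct8 overlap tail to tail by 192 bases, and the strand setting of the counting was not given in the sources used here.

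**Figure D2:**
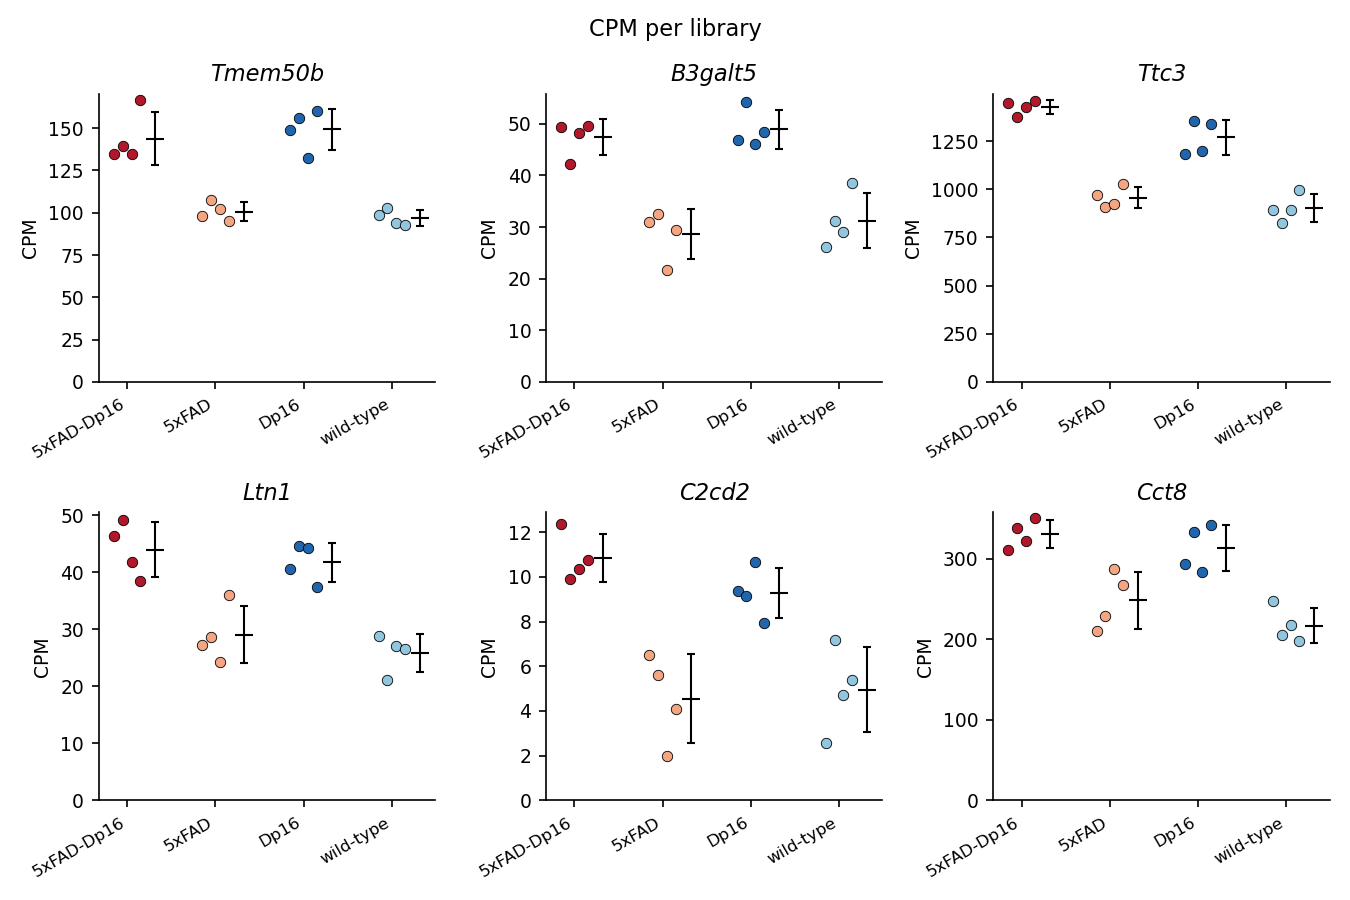
CPM (vertical axis, from 0) of 6 genes in each library of 5xFAD-Dp16, 5xFAD, Dp16 and wild-type cortex; circles are animals, and the dash with bars is the mean ± SD (n = 4). In every panel the libraries of both groups with the duplication lie above those of the matching group without it.

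Genes of metabolism and transport had a median of 1.3-fold, with 7 of 7 positive and 2 called. B3galt5 encodes an enzyme that adds galactose to sugar chains of proteins and lipids. It measured 49.3, 42.3, 48.3 and 49.7 CPM in 5xFAD-Dp16 libraries, against 31, 32.5, 21.6 and 29.3 CPM in 5xFAD libraries. It measured 46.8, 54.2, 46.1 and 48.5 CPM in Dp16 libraries, against 26.2, 31.1, 29.1 and 38.5 CPM in wild-type libraries. The groups were apart in both comparisons, and the averaged log2 fold was 0.74 (SE 0.10, adjusted p = 0.00321), or 1.675-fold. B3galt5, Tmem50b and Ttc3 were called in 16 of 16 models that leave out 1 library.

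C2cd2, a gene for a protein with a lipid-binding C2 domain, was far less abundant. It measured 12.4, 9.92, 10.3 and 10.7 CPM in 5xFAD-Dp16 libraries, against 6.52, 5.6, 1.98 and 4.1 CPM in 5xFAD libraries. Dp16 libraries held 9.37, 9.13, 10.7 and 7.92 CPM, against 2.56, 7.18, 4.72 and 5.36 CPM in wild-type libraries. No values overlapped, but the libraries without the duplication spread widely. Its averaged log2 fold was 1.27 (SE 0.21, adjusted p = 0.0249), or 2.412-fold, and its 95% interval lay above 1.5-fold. In the test against 1.5-fold the adjusted p was 0.195. The call against no difference held in 7 of 16 models that leave out 1 library, and was lost without those 7 animals, 5xFAD animal 4 or 5xFAD-Dp16 animal 4. C2cd2 overlaps Zbtb21, the last gene of the segment, by 86 bases on the same strand.

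The other 5 members of this class did not pass edgeR's quasi-likelihood test in the model of all 16 libraries. Slc5a3, which carries myo-inositol into cells, had a fold of 1.73 (adjusted p = 0.216). Gart, which catalyses 3 steps of purine synthesis, had 1.3-fold (adjusted p = 0.209), with groups apart in both comparisons. The carbonyl reductases Cbr1 (1.124-fold, adjusted p = 0.622) and Cbr3 (1.127-fold, adjusted p = 0.593) and Pigp, a subunit that starts the making of GPI anchors (1.135-fold, adjusted p = 0.598), were among the lowest folds, and their 95% intervals lay below 1.5-fold and included no difference. Cbr1 measured 168, 241, 185 and 233 CPM in 5xFAD-Dp16 libraries, against 138, 149.8, 321 and 216 CPM in 5xFAD libraries. Its Dp16 values were 220.5, 246, 177 and 298 CPM, against 186, 234, 177 and 118 CPM in wild-type libraries. Both pairs of groups overlapped, and the highest value of all came from 5xFAD animal 3, a library without the duplication.

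Genes grouped under mitochondria and translation had an averaged median of 1.251-fold, with 8 of 8 positive. It was 1.025-fold in 5xFAD-Dp16 against 5xFAD, with 5 of 8 positive, and 1.542-fold in Dp16 against wild-type, with 7 of 8 positive. In the same order, the protein folding class had 1.302 and 1.493, and the metabolism class 1.265 and 1.379. The nucleus class had 1.222 and 1.4, while the signalling class had 1.648 and 1.445. The differences between these medians were not tested. In the model of all 16 libraries, edgeR's quasi-likelihood test called no member here in either comparison, in their average or in the interaction. In the average, DESeq2 called Mrpl39 and Rwdd2b (0.77% of all genes were called). With no filter on low counts Mrpl39, Atp5j and Rwdd2b were called there (3.76% of all genes). With the length trend removed Mrpl39, Atp5j, Atp5o, Mrps6 and Rwdd2b were (0.2% of all genes). Rwdd2b, a gene of little known function that was placed in this class without a sure role in either process, came nearest, with 1.625-fold (SE of the log2 fold 0.14, adjusted p = 0.0925). It measured 19.2, 20.9, 20.8 and 20.6 CPM in 5xFAD-Dp16 libraries, against 13, 13.4, 17.3 and 12.1 CPM in 5xFAD libraries. It measured 23.1, 22.8, 21.6 and 28.5 CPM in Dp16 libraries, against 14.8, 18.7, 11.6 and 9.2 CPM in wild-type libraries. Neither pair of groups overlapped.

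Atp5j, coupling factor 6 of the ATP synthase, measured 261, 332, 319 and 320.3 CPM in 5xFAD-Dp16 libraries, against 225, 233, 378 and 305 CPM in 5xFAD libraries. Its Dp16 libraries held 409, 386, 322 and 436 CPM, against 268, 303, 241 and 185 CPM in wild-type libraries. The first pair of groups overlapped and the second did not, with log2 folds of 0.06 (SE 0.19) and 0.65 (SE 0.17). Atp5o, which joins the motor of that enzyme to its stalk, had log2 folds of 0.01 (SE 0.24) and 0.50 (SE 0.22) in the same order. Mrpl39, a protein of the large mitochondrial ribosomal subunit, had 0.28 (SE 0.15) and 0.61 (SE 0.14). The others were N6amt1, part of the enzyme that methylates a translation release factor (averaged 1.244-fold), Cryzl1, a quinone oxidoreductase relative (1.213-fold), and Urb1, a ribosome assembly gene (1.258-fold).

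The partners of these subunits have 2 copies in all groups and were used as a reference within each library. Their own folds were mostly negative, as given below, so they are not a fixed reference. Lists of such partners covered 10 complexes or pathways and 131 tested genes, none of them in the segment. In the averaged comparison 0 partners were called by edgeR's quasi-likelihood test or by DESeq2, while 16 were called lower and 1 higher with no filter on low counts, and 54 lower and 1 higher in males only. At an unadjusted p under 0.05, 36 were lower and 2 higher (27.5% and 1.53%, against 7.76% and 7.27% of all genes). In all 16 had positive folds, and the median log2 fold was -0.24. That median was -0.11 with the length trend removed, -0.13 without 5xFAD animal 3, -0.092 without both libraries of lowest correlation and -0.42 in males only. In 5xFAD-Dp16 against 5xFAD the 16 ATP synthase partners had a median log2 fold of -0.62 and the 75 mitochondrial ribosome partners -0.49, against -0.06 and -0.03 in Dp16 against wild-type. The 7 CCT partners had -0.41 and -0.05.

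For 9 members the level was also set against the mean of the partners in the same library. This ratio was chosen after the values had been seen and is given without a test. It was not computed for Pigp, N6amt1, Chaf1b and Mis18a, which also had partner lists. Cct8 relative to its partners was 1.616-fold higher in 5xFAD-Dp16 than in 5xFAD cortex and 1.509-fold higher in Dp16 than in wild-type cortex. Atp5j gave 1.485 and 1.62, Atp5o 1.469 and 1.479, and Mrpl39 1.597 and 1.562 in the same order. For these 4 genes no library without the duplication reached the matching libraries with it. The own levels of Atp5j and Atp5o overlapped between 5xFAD-Dp16 and 5xFAD animals, with log2 folds of 0.06 and 0.01. Their ratios were apart there with partners at a median log2 fold of -0.62, so the ratios do not show a rise of either gene. Ltn1 gave 1.492 and 1.594, Gart 1.366 and 1.336, Wrb 1.363 and 1.685, Psmg1 1.496 and 1.181, and Mrps6 1.219 and 1.73. In 5xFAD-Dp16 against 5xFAD the own log2 folds of Psmg1 and Mrps6 were 0.12 and -0.20. Their partners had median log2 folds of -0.51 and -0.49 there, so the ratios of 1.496 and 1.219 do not show a rise of either gene. Over these 9 genes, groups were apart for 8 in 5xFAD-Dp16 against 5xFAD (all but Wrb). They were apart for 7 in Dp16 against wild-type (all but Psmg1 and Gart). The share of all genes apart by such ratios was not computed, so these counts are not read as a result about the members.

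**Figure D3:**
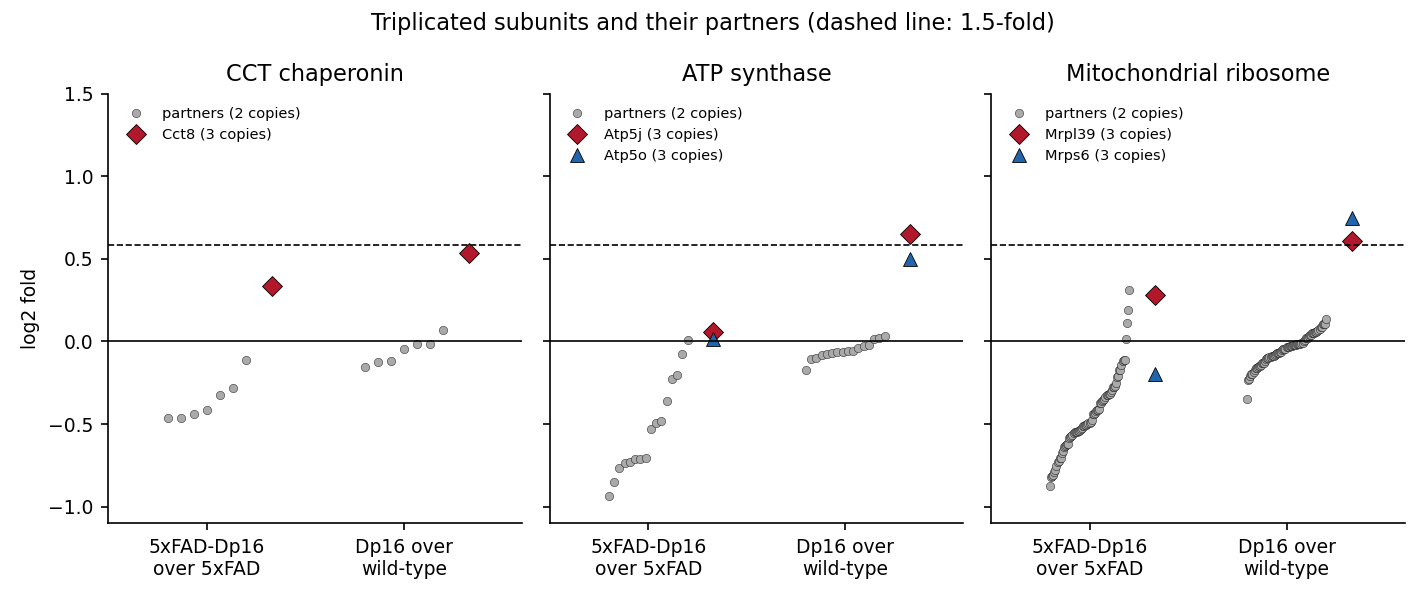
Log2 fold (vertical axis) of triplicated subunits (diamonds and triangles) and of their partners with 2 copies (grey circles, 1 per gene) in 5xFAD-Dp16 over 5xFAD and in Dp16 over wild-type; the solid line is no difference and the dashed line 1.5-fold. Atp5j and Atp5o lie near 0 on the left and near the dashed line on the right, while their partners sit at a median of -0.62 on the left and -0.06 on the right.

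Mrps6, a protein of the small mitochondrial ribosomal subunit, and Slc5a3 start almost at the same place, as the promoter windows showed, and their exons share 159 bases on 1 strand. Mrps6 measured 29.3, 36.7, 34.2 and 35 CPM in 5xFAD-Dp16 libraries, against 29.7, 29.4, 45.4 and 39.6 CPM in 5xFAD libraries. Its Dp16 libraries held 49.7, 51.4, 39 and 61.1 CPM, against 35.9, 32.7, 36.2 and 17.9 CPM in wild-type libraries. The first pair of groups overlapped and the second was apart, with log2 folds of -0.20 (SE 0.21) and 0.75 (SE 0.20).

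Slc5a3 gave the opposite picture. It measured 19.5, 15.4, 19.7 and 16.8 CPM in 5xFAD-Dp16 libraries, against 10, 11, 4.36 and 8.38 CPM in 5xFAD libraries. Its Dp16 values were 11.8, 15.2, 10.4 and 10.3 CPM, against 7.98, 6.61, 9.39 and 13.5 CPM in wild-type libraries. Here the first pair of groups was apart and the second overlapped, with log2 folds of 1.22 (SE 0.28) and 0.36 (SE 0.26). None of these 4 folds passed the adjusted threshold, and the difference between the genes was not tested. The gene models differ in length, at 846 bases for Mrps6 and 10913 for Slc5a3. With the length trend removed, the 5xFAD-Dp16 against 5xFAD log2 folds were 0.24 for Mrps6 and 0.87 for Slc5a3. In that setting Mrps6 was called in the averaged comparison (log2 fold 0.51, adjusted p = 0.0122).

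Ttc3 and Pigp lie on opposite strands and overlap at their starts. Pigp had 4 promoter windows, and those that overlap the Ttc3 window do so by 92, 128 and 288 bases. In 5xFAD-Dp16 against 5xFAD, Ttc3 had a log2 fold of 0.57 (SE 0.11, adjusted p = 0.0811). Pigp had -0.27 there (SE 0.27, adjusted p = 0.541). In Dp16 against wild-type the log2 folds were 0.49 (SE 0.10) for Ttc3 and 0.63 (SE 0.25) for Pigp. None of these folds passed edgeR's quasi-likelihood test, and the difference between the genes was not tested. Pigp measured 29.8, 35.2, 38.9 and 38.6 CPM in 5xFAD-Dp16 libraries, against 25.7, 23.8, 64.5 and 42.3 CPM in 5xFAD libraries. It measured 44.4, 52.3, 31.2 and 54 CPM in Dp16 libraries, against 32.1, 34.2, 34.2 and 19.8 CPM in wild-type libraries. Both pairs overlapped, and the highest Pigp value came from 5xFAD animal 3, which had the lowest correlation with the other libraries. Pigp has 1867 bases against 12116 for Ttc3, and 16.407% of its exonic bases overlap Ttc3 on the other strand.

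**Figure D4:**
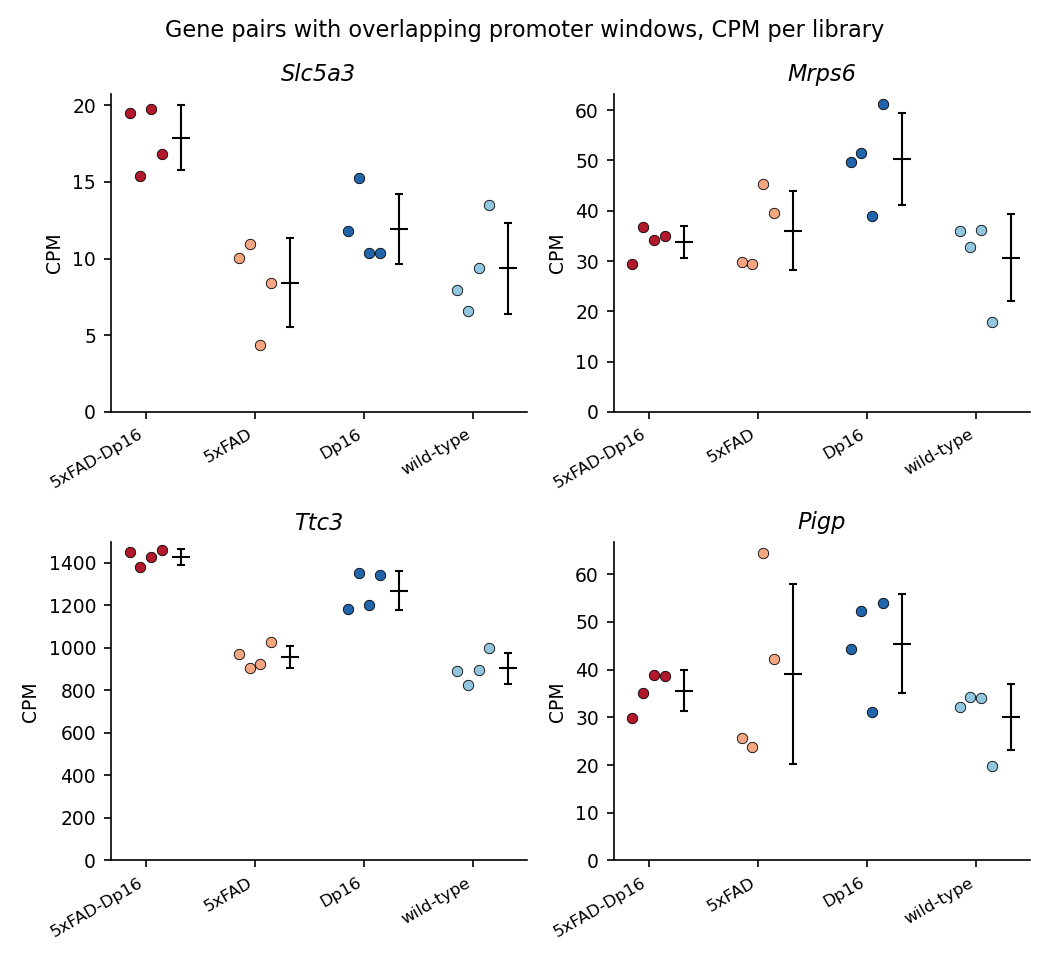
CPM (vertical axis, from 0) of Slc5a3 and Mrps6 (top) and of Ttc3 and Pigp (bottom) in each library, with the mean ± SD (n = 4). Slc5a3 is apart between 5xFAD-Dp16 and 5xFAD and overlaps between Dp16 and wild-type, the reverse of Mrps6, and Ttc3 is apart in both comparisons while Pigp overlaps in both.

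Over 40 members the rank correlation between gene length and log2 fold was 0.589 in 5xFAD-Dp16 against 5xFAD and -0.188 in Dp16 against wild-type. Over the 16914 genes outside the segment it was 0.454 and 0.084, so the sign was the same in the first comparison and opposite in the second. These are descriptions across genes measured in the same libraries. In the average, the 20 shorter members had a median of 1.251-fold and the 20 longer ones 1.343-fold, and with the trend removed 1.414-fold and 1.25-fold. With the trend removed 11 members were called where 0.2% of all genes were, and the members' median was 1.388-fold. The median log2 fold in that setting was 0.47 for the members and 0.57 for the other segment genes. The 11 were Ripk4, Usp25, Mrpl39, Atp5j, Atp5o, Tmem50b, Cct8, Mrps6, Rwdd2b, C2cd2 and B3galt5.

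Genes of the nucleus, RNA and cell division had a median of 1.293-fold over the 9 of 10 that were tested. All 9 were positive and none was called by edgeR's quasi-likelihood test in the model of all 16 libraries. Rbm11, a splicing regulator, averaged 15.2 ± 2.46 CPM in 5xFAD-Dp16 and 11.8 ± 4.77 CPM in 5xFAD cortex, and 17.6 ± 2.39 CPM in Dp16 and 10.3 ± 0.755 CPM in wild-type cortex (SD, n = 4 each). The first pair of groups overlapped and the second did not. Donson, which acts in DNA replication, had 1.498-fold (adjusted p = 0.322), and Scaf4, which binds RNA polymerase II, 1.323-fold. Paxbp1, Prdm15 and Mis18a lay between 1.19-fold and 1.293-fold. Btg3, an antiproliferative gene, had 1.126-fold (adjusted p = 0.552) with an interval below 1.5-fold. Its 5xFAD-Dp16 libraries held 22.3, 32.2, 28.3 and 31.2 CPM, against 18.1, 24.1, 42.4 and 33.3 CPM in 5xFAD libraries. Dp16 libraries held 26.2, 40.2, 25.8 and 32.8 CPM, against 21.2, 24.9, 24.1 and 15.8 CPM in wild-type libraries. The first pair overlapped and the second did not.

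Setd4, a methyltransferase gene, had the lowest positive fold of the tested members, at 1.07 (SE of the log2 fold 0.28, adjusted p = 0.867). It measured 5.64, 8.75, 4.91 and 5.72 CPM in 5xFAD-Dp16 libraries, against 4.55, 4.97, 7.85 and 4.44 CPM in 5xFAD libraries. It measured 5.75, 3.48, 2.48 and 3.31 CPM in Dp16 libraries, against 1.49, 6.11, 5.39 and 2.94 CPM in wild-type libraries, so both pairs overlapped. Chaf1b, a subunit of the histone chaperone CAF-1, had few reads, 42 over the 5xFAD-Dp16 group and 16 over the 5xFAD group, and 63 over the Dp16 group and 16 over the wild-type group. Its log2 fold was 2.36 with an SE of 0.81 (adjusted p = 0.322). Sim2, a transcription factor of the developing midline, did not pass the filter, with 7 reads in the 5xFAD-Dp16, 2 in the 5xFAD, 5 in the Dp16 and 7 in the wild-type group. Its level was too low in cortex to show a difference at this depth.

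Psmg1, the proteasome assembly gene, was another of the lowest folds. It measured 22.5, 33.2, 27.4 and 30.8 CPM in 5xFAD-Dp16 libraries, against 20.8, 20.5, 31.8 and 28.7 CPM in 5xFAD libraries. It measured 26, 31.4, 20.9 and 32.6 CPM in Dp16 libraries, against 23.1, 29.6, 23.3 and 19.2 CPM in wild-type libraries. The groups overlapped in both comparisons. Its averaged log2 fold of 0.17 (SE 0.14, adjusted p = 0.521) had an interval of -0.13 to 0.47, below the 0.585 that 1.5-fold gives. The test against 1.5-fold, adjusted over the 105 tested genes of the segment, gave 0.212.

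In that test 1 member was called, Ripk4, which was higher (adjusted p = 0.00654), where 0.952% of the 105 genes were called higher and 0.952% lower. Ripk4 was tested only because it passed the filter through the libraries with the duplication, and none of the other 40 members was called in this model. The intervals of 10 members lay below 1.5-fold, namely Btg3, Samsn1, Psmg1, Pigp, Cbr3, Gart, Paxbp1, Usp16, Mrps6 and Cbr1, and 8 of these included no difference. No member passed the adjusted test on that side in the model of all 16 libraries by edgeR's quasi-likelihood test, or by DESeq2, with 10 below 1.5-fold at an unadjusted p under 0.05. With no filter on low counts 1 member (Cbr1) was called below 1.5-fold, and in males only 11 were, where 24.5% of the segment's 106 tested genes were called on either side. In the model of all 16 libraries those 10 were called neither different from 1.5-fold nor, at the adjusted threshold, different from 1-fold. Of all 40 intervals 22 lay above no difference and 18 included it.

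Genes of signalling, matrix and immune adaptors had a median of 1.497-fold with 6 of 7 positive and 1 called, Ripk4. Ripk4 is a kinase known for its part in the maturation of skin cells, and its level in cortex was very low. It measured 1, 2.66, 1.04 and 0.936 CPM in 5xFAD-Dp16 libraries, against 0.264, 0, 0.198 and 0.337 CPM in 5xFAD libraries. Dp16 libraries held 1.35, 0.456, 1.27 and 0.495 CPM, against 0 in all 4 wild-type libraries. Neither pair of groups overlapped. The 5xFAD-Dp16 mean was 7.06-fold the 5xFAD mean (106 against 13 reads over 4 libraries). The Dp16 mean was at least 19-fold higher than the wild-type floor of 0.0466 CPM, which stands for 3 reads over the group and covers counting error only (62 against 0 reads). The averaged adjusted p was 0.0345, for a gene that entered the model only through the libraries in which it was high, and the call held in 3 of 16 models that leave out 1 library, those without wild-type animal 2 or 4 or 5xFAD animal 2. Ripk4, Prdm15 and C2cd2 are the last 3 members along the segment before its Zbtb21 end; Prdm15, a zinc finger gene between the other two, had 1.293-fold (adjusted p = 0.328).

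Samsn1, an adaptor of white blood cells, was the member that changed with the transgenes. It measured 3.92, 5.48, 5.43 and 5.17 CPM in 5xFAD-Dp16 libraries, against 2.84, 2.85, 3.85 and 4.25 CPM in Dp16 libraries. It measured 8.57, 8.86, 7.52 and 6.8 CPM in 5xFAD libraries, against 3.04, 3.8, 1.39 and 1.47 CPM in wild-type libraries. The first pair overlapped, and in the second all 5xFAD libraries were higher, as was so for 2.8% of all genes. Samsn1 rose in 5xFAD against wild-type cortex by a log2 fold of 1.72 (SE 0.30, adjusted p = 0.0205), where 0.159% of all genes were called higher. Averaged over the Dp16 states the log2 fold was 1.18 (SE 0.21, adjusted p = 0.0304, with 0.153% called higher), a call that was lost without wild-type animal 3, Dp16 animal 1, 2 or 3, 5xFAD animal 1, 2 or 4, or 5xFAD-Dp16 animal 2, 3 or 4 (highest adjusted p 0.13). In 5xFAD-Dp16 against Dp16 it was 0.63 (adjusted p = 0.758). The call against wild-type was lost without wild-type animal 3 or 4 or 5xFAD animal 1, 2 or 3 (highest adjusted p 0.09), in males only (0.154) and with those groups alone in the model (0.378).

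With respect to the duplication, Samsn1 was lower in all 4 5xFAD-Dp16 libraries than in all 4 5xFAD libraries (log2 fold -0.56, SE 0.31, adjusted p = 0.269), the single member to lie wholly lower there, as 5.87% of all genes did. In Dp16 against wild-type its log2 fold was 0.53 (SE 0.30). The summed level of 9 microglia markers was also lower in 5xFAD-Dp16 libraries, at 666.5 to 769.9 CPM, than in 5xFAD libraries, at 842 to 1216 CPM. It overlapped between Dp16 libraries, at 629 to 774 CPM, and wild-type libraries, at 619 to 716.5 CPM. None of the 9 markers was at 0. These CPM values have no correction for sex, and all 5xFAD-Dp16 animals were male. The marker sum was 1201 and 1216 CPM in the female 5xFAD animals 1 and 2, and 889.7 and 842.4 CPM in the male animals 3 and 4. Samsn1 measured 8.57 and 8.86 CPM in those females and 7.52 and 6.8 CPM in those males. Per 1000 CPM of these markers, Samsn1 stood at 6.91 ± 1.23 CPM in 5xFAD-Dp16 and 7.74 ± 0.631 in 5xFAD cortex, and at 5.01 ± 1.19 in Dp16 and 3.63 ± 1.71 in wild-type cortex (SD, n = 4 each). The part of microglia in these differences was not tested beyond this ratio, and the part of sex in the CPM values was not tested.

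In the model of all 16 libraries, edgeR's quasi-likelihood test called no other member in a comparison of the transgenes or in the interaction, that is, the difference between both duplication effects. In 5xFAD against wild-type Adamts1 was also called lower by DESeq2 (adjusted p = 0.0218, where 1.37% of all genes were called) and with no filter on low counts (adjusted p = 0.000835, 0.806% of all genes), and with no filter it was called in the interaction too (1.19% of all genes). In the interaction 2 members were higher and 7 lower at an unadjusted p under 0.05 (4.58% and 4.77% of all genes), and DESeq2 called 0. In 5xFAD-Dp16 against Dp16 0 were called, with 1 higher and 3 lower at an unadjusted p under 0.05 (2.67% and 2.63% of all genes), and DESeq2 called 0. Adamts1, a secreted protease that cuts matrix proteoglycans, had the smallest interaction p and is named for that, after its values had been seen, as is Mrps6. Adamts1 measured 10.8, 6.54, 6.63 and 4.57 CPM in 5xFAD-Dp16 libraries, against 3.95, 2.74, 1.25 and 1.63 CPM in 5xFAD libraries. Dp16 libraries held 6.81, 5.25, 7.54 and 2.37 CPM, against 6.85, 4.13, 6.54 and 9.62 CPM in wild-type libraries. The first pair was apart and the second overlapped, and all 5xFAD libraries lay below all wild-type ones, as they did for 2.68% of all genes.

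The log2 folds of Adamts1 were 1.70 (SE 0.44, adjusted p = 0.155) in 5xFAD-Dp16 against 5xFAD, -0.30 (SE 0.39) in Dp16 against wild-type, and -1.54 (SE 0.41, adjusted p = 0.216) in 5xFAD against wild-type. The interaction was 2.00 (SE 0.59, adjusted p = 0.522), and that of Mrps6 was -0.95 (SE 0.29, adjusted p = 0.522). The summed level of 7 endothelial markers averaged 109.6 ± 26.8 CPM in 5xFAD-Dp16 and 75.6 ± 10.6 CPM in 5xFAD cortex, and 113 ± 29.8 CPM in Dp16 and 122 ± 22.0 CPM in wild-type cortex (SD, n = 4 each). The 10 immediate early genes summed to 746 ± 220.9, 468 ± 114, 513 ± 136 and 770 ± 189 CPM in those 4 groups. None of these markers was at 0 in any group, and their part in the Adamts1 values was not tested.

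**Figure D5:**
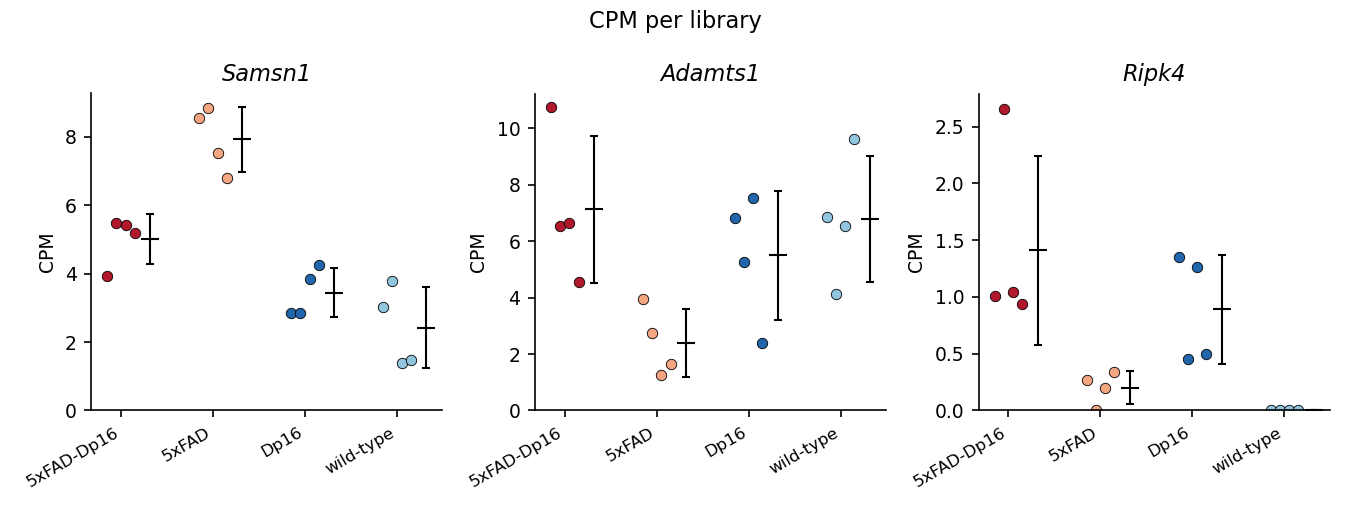
CPM (vertical axis, from 0) of Samsn1, Adamts1 and Ripk4 in each library, with the mean ± SD (n = 4). Samsn1 is highest in the 5xFAD group at 6.8 to 8.86 CPM, Adamts1 is lowest there at 1.25 to 3.95 CPM, and Ripk4 is at 0 in all 4 wild-type libraries.

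The other 4 members of this class did not pass any of edgeR's quasi-likelihood tests in the model of all 16 libraries. They were Adamts5, a related protease (1.326-fold), the kinase gene Hunk (1.323-fold), Eva1c, whose relative in Caenorhabditis elegans is a receptor for the guidance cue Slit (1.497-fold), and Sh3bgr. Sh3bgr had one of the largest folds above 1 CPM but a wide spread. It measured 0.86, 0.831, 1.36 and 1.82 CPM in 5xFAD-Dp16 libraries, against 0.857, 0, 1.06 and 0.731 CPM in 5xFAD libraries. It measured 1.63, 1.25, 0.608 and 2.62 CPM in Dp16 libraries, against 0.774, 0, 1.76 and 0.789 CPM in wild-type libraries. Both pairs overlapped, and the log2 fold was 0.87 (SE 0.62, adjusted p = 0.444).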

How the data were processed

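Polyadenylated RNA was extracted with TRIzol, made into strand-specific libraries with a Tecan/Nugen kit and sequenced in pairs on a NovaSeq instrument, per the labels' protocols. The authors deposited whole-number read counts for each gene without normalization, and a second deposited table holds RPKM values, that is counts scaled by gene length and library total by the authors. The submitters' processing notes name bcl2fastq, FastQC 0.11.5, HISAT2 2.1.0, SAMtools 1.5, HTSeq 0.6.1 and build GRCm38, and the strand setting of the counting is not given in the sources used here. The RPKM values served only to check the counts, since 100.0% matched count, length and total within 0.1%, and to give gene lengths.

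Counts were analysed in R 4.3.3 with edgeR 4.0.16. Genes were filtered with filterByExpr by group, leaving 17019, and scaled by TMM factors. One quasi-likelihood model with robust dispersions held a mean per genotype and an additive sex term. Tests were two-sided, p-values were adjusted by the Benjamini-Hochberg method across the 17019 genes, and the threshold was 0.05. The averaged comparison is the mean of both duplication comparisons. The test against 1.5-fold put log(1.5) into the offset of the 8 libraries with the duplication and was adjusted over the 105 tested genes of the segment. Intervals are 95% intervals. CPM are scaled by the TMM factors. Partner ratios used log2 CPM with a prior count of 2. Length trends were removed with a lowess curve of span 0.3 per library. DESeq2 1.42.0 was an alternative. The scripts were tested on simulated data. Coordinates came from Gencode M21 on the same build (55144 genes matched, 241 not), and promoters from RefSeq.

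The members, their classes, the partner and marker lists and the tests were chosen with earlier results of these data known. Genes given in full were the 8 with the smallest adjusted p, any that differed from 1.5-fold, the 4 largest and 4 smallest folds among those averaging at least 1 CPM, those called in a transgene comparison, and those that failed the filter. Libraries were compared with each other, and 0 of 120 pairs were identical. The labels give 1 animal per library, so p-values measure the spread between animals. Precision follows from 12483286 to 20385010 reads per library. Floors and intervals on reads cover counting error only.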

Additional observations from a re-analysis of the deposited data

Results flagged for a closer look

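Of 167 groups of 4 libraries, 10 held a value whose gap to its nearest neighbour as a share of the group's range exceeded Dixon's 95% critical value, which chance passes in about 1 of 20 groups. Ripk4 stood at 2.66 CPM in 5xFAD-Dp16 animal 2, against 1.04 CPM in the next animal. Tmem50b stood at 167 CPM in 5xFAD-Dp16 animal 4, against 139 CPM in the next. Cbr3 was low at 32.8 CPM and Rwdd2b at 19.2 CPM in 5xFAD-Dp16 animal 1, where the next values were 43.6 and 20.6 CPM. Setd4 was high at 7.85 CPM in 5xFAD animal 3, against 4.97 CPM in the next animal. Pigp was low at 19.8 CPM in wild-type animal 4, where the next value was 32.1 CPM. Chaf1b was read at 0.841 CPM in wild-type animal 4 and at 0 in the other wild-type animals. Sim2, which failed the filter, was read in 1 animal each of 3 groups, at 0.132 CPM in 5xFAD animal 3, 0.285 CPM in Dp16 animal 2 and 0.368 CPM in wild-type animal 4 (5xFAD-Dp16 had reads in 2 animals).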

How the results depend on the processing

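The number of members called in the averaged comparison, 6 here, was 14 with DESeq2, 16 with no filter on low counts, 15 in males only, 11 with the length trend removed and 3 with a replicate block (0.77%, 3.76%, 14.2%, 0.2% and 0.0529% of all genes in that order). Leaving out 1 library gave 3 to 10. All 6 were among the members called by DESeq2, with no filter and in males only, 4 were among those called with the trend removed and 3 (Tmem50b, Ttc3 and B3galt5) with the block. The members' median averaged log2 fold ran from 0.41 to 0.47 without single libraries. It was 0.37 in males only and 0.49 without both libraries of lowest correlation. Without both, the median was 0.43 in 5xFAD-Dp16 against 5xFAD and 0.67 in Dp16 against wild-type, against 0.34 and 0.55 with all 16 libraries. For 5xFAD-Dp16 against 5xFAD the count of 0 became 7 with DESeq2 (4.59% of all genes), 8 with no filter (7.6%), 1 with no sex term (0.094%), 9 in males only (22% of the members, against 22.5% of all genes), 1 with the trend removed (0.0235%) and 11 (10 higher, 1 lower) with those groups alone in the model (27.5% of the members, against 31.3% of all genes), and 0 to 3 without single libraries (3 without wild-type animal 2). For Dp16 against wild-type 0 became 9 with DESeq2, 7 with no filter and 7 with the trend removed (0.206%, 0.148% and 0.0999% of all genes), and stayed at 0 without single libraries. For the transgenes, the 1 member called in the average (Samsn1) became 0 in males only and with the block, and 0 to 1 without single libraries. In 5xFAD against wild-type 1 became 2 with DESeq2 and with no filter (Samsn1 higher, Adamts1 lower in both), and 0 in males only, with the block and with those groups alone, and 0 to 1 without single libraries. The interaction gave 1 (Adamts1) with no filter. Against 1.5-fold, 1 (above) became 2 with DESeq2 (both above), 3 with no filter (2 above, 1 below), 0 with a filter at a mean of 1 CPM, which leaves Ripk4 untested, and 14 in males only (3 above, 11 below), and 1 to 2 without single libraries (2 without wild-type animal 4 or Dp16 animal 4). The cause of these moves was not tested. Of the lowest folds, 4 changed the sign of the averaged log2 fold, which passed no test. Samsn1 was 0.0049 with no filter, 0.045 in males only, 0.083 with the trend removed and 0.066 without both libraries of lowest correlation (an alternative chosen after seeing the data), and -0.13 to 0.13 without single libraries. Setd4 was -0.083, Pigp -0.12 and Cbr1 -0.070 in males only, and Setd4 was -0.076 to 0.30 without single libraries. Animals that share a number did not deviate together (correlations of -0.24 to 0.316 over 16 pairs), so the numbers are not taken as a pairing. Genes under 1 CPM, such as Ripk4, Chaf1b and Sim2, are limited by depth, and 5xFAD-Dp16 animals are all male, so sex enters that group only through the model term. CPM values and the separation of groups read from them have no such term.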
